A study of Homo sapiens with 12 samples.

Results

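The genes described here are 55 ligands and receptors of axon guidance, chosen by name from the semaphorin, ephrin, Eph, slit, robo, netrin and UNC5 families, with DCC and NRP2 added. They are 55 of the 20046 protein-coding genes in the annotation used, and the rule that lists them uses no measured value, although the list was drawn up with earlier results of these data known. Peaks of H3K27me3, found by ChIP-seq, came from the neuroblastoma line SH-SY5Y with its own Tau (WT) and from 231K and 232P, a pair of SH-SY5Y lines carrying a knock-out of MAPT, the Tau gene (Tau-KO). Each of the 3 genotypes had 2 samples, named A and B, and each sample had its own list of peaks. A genotype was represented by 1 line only, so an effect of the knock-out and a property of the line cannot be told apart within 231K or 232P, and both lines were compared with the same WT samples. MAPT had no peak in any sample, and the genotypes could not be checked from these data.

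Axon guidance molecules steer growing neurites. Slits, netrins, ephrins and semaphorins are the cues, and robo receptors, DCC and UNC5 receptors, Eph receptor tyrosine kinases and the neuropilin-plexin complexes read them. H3K27me3 is the histone mark that PRC2 writes at developmental genes kept silent in a cell type, where it can spread over long domains. A gene is said here to have a TSS mark in a sample when a peak of that sample reaches into the 1 kb on either side of an annotated start site. Covered length is the number of bases of the gene, with 1 kb added at both ends, that lie under peaks.

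The sequences that frame the result come first. They are bases upstream of RefSeq start sites (GRCh38.p14), printed 5′ to 3′ on the strand of the gene with each CG dinucleotide in capitals, and they show what lay under a peak and what did not. The stretches of EPHA4 (chr2:221574203-221574452, minus strand) and EPHB6 (chr7:142862506-142862755, plus strand) were touched by a peak in all 6 samples, that of EPHA1 (chr7:143408857-143409106, minus strand) in 4 and that of EPHA3 (chr3:89107371-89107620, plus strand) in 1. The stretch of NRP2 (chr2:205682251-205682500, plus strand) was touched in none although the gene had a TSS mark in every sample, and EFNB2 (chr13:106535663-106535912, minus strand) is shown as 1 of the 7 ephrins among the 55 genes, which had no peak at all. The RefSeq start is the canonical start of the GENCODE annotation for EPHA1, EPHA3, NRP2 and EFNB2, but lies at -1898 bases from it in EPHA4 and 7680 bases downstream of it in EPHB6, within an intron.
EPHA4: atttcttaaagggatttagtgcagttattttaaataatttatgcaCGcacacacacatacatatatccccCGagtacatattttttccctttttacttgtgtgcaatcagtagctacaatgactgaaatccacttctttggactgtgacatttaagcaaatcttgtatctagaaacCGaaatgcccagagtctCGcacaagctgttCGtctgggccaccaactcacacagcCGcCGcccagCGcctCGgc
EPHB6: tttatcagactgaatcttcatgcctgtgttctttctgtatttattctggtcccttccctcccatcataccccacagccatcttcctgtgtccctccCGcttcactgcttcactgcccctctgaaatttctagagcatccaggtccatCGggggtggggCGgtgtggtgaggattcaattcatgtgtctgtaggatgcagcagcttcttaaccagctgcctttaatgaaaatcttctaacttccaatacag
EPHA1: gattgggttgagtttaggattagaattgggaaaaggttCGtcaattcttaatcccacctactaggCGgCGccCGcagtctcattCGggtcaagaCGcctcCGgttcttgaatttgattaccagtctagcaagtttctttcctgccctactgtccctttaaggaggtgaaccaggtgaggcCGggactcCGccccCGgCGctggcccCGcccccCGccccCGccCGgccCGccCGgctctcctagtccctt
EPHA3: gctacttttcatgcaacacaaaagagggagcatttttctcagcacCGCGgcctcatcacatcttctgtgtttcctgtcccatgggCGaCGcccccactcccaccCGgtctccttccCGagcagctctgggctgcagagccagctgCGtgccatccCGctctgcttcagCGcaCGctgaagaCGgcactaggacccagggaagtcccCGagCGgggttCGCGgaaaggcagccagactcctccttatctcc
NRP2: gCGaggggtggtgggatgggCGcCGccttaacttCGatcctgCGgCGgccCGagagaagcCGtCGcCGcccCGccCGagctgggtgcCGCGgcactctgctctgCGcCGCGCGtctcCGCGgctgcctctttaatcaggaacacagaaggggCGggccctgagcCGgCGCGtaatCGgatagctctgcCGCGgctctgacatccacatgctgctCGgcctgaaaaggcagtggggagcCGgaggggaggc
EFNB2: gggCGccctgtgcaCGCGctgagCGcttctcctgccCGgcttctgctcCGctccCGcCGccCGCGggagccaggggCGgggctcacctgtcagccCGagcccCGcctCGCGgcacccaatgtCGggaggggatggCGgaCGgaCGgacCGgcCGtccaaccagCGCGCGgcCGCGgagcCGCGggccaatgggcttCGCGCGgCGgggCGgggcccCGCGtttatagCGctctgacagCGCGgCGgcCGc
These 250 bases hold 9 CG in EPHA4, 3 in EPHB6, 17 in EPHA1, 15 in EPHA3, 29 in NRP2 and 40 in EFNB2, with CG being its own complement, so that both strands give the same count. Of the 15345 promoters of protein-coding genes compared, 87.4% have at least as many CG as EPHB6, 18.4% as many as NRP2 and 2.68% as many as EFNB2. The other ephrins with an entry held 17 CG in EFNA4, 23 in EFNA3, 24 in EFNA1, 36 in EFNA2 and 41 in EFNA5, so that EFNB2 is near the upper end of its family. The median was 17 both over all of these promoters and over the 45 guidance genes that had an entry.

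The samples differed in depth and in the width of their peaks. The lists held 285826 and 222191 peaks in WT A and B, 271413 and 212347 in 231K, and 147118 and 199677 in 232P. Relative depth was estimated as the lowest local background in a list divided by the smallest peak width of that list, used in place of a fragment length. It was 100% in WT A, 66.6% in WT B, 94.8% in 231K A, 68.7% in 231K B, 68.1% in 232P A and 56.9% in 232P B. Peaks of the B samples had median widths of 666 to 688 bp, against 335 to 441 bp in the A samples. 232P A stood apart, with 70.3 Mb of the genome covered compared with 197 to 290 Mb in the other samples. A missing peak says only that the signal did not pass the threshold of the caller at the depth of that sample.

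Receptors carried most of the start-site marks, and a few genes carried most of the covered length. Of the 55 genes, 11 had a TSS mark in all 6 samples (20%, beside 11.4% of all protein-coding genes), namely EPHA1, EPHA3, EPHA4, EPHA5, EPHA7, EPHB4, EPHB6, ROBO3, DCC, NRP2 and the ligand NTN1. In at least 1 sample, 19 had a TSS mark (34.5%, beside 21.9% of all genes), and 28 had some covered length (50.9%, beside 27.5%). The guidance genes are long, with a median of 120 kb and 7 start sites, compared with 27.4 kb and 5 start sites over all protein-coding genes. With only the start of the canonical transcript, 8 genes were marked in all 6 samples (14.5%, beside 8.52%). The part of gene size in these shares was not tested. No peak was found in any sample for 27 of the 55 genes.

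**Figure D1:**
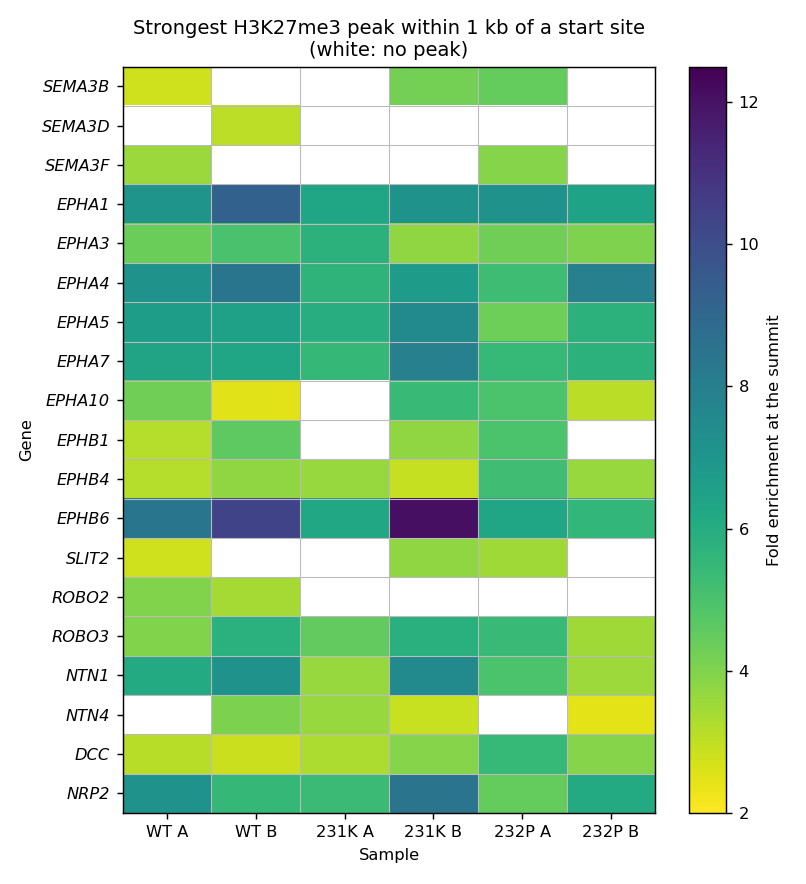
Fold enrichment at the summit of the strongest peak at a start site (colour, deposited value) for the 19 genes with a TSS mark in at least 1 sample (vertical axis) in each of the 6 samples (horizontal axis), with white for no peak. EPHA1, EPHA4, EPHA5, EPHA7 and EPHB6 are filled in every sample, ROBO2 only in the 2 WT samples, and SEMA3B, SEMA3D, SEMA3F and SLIT2 in 1 to 3 samples.

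Among the ligands, none of the 7 ephrins (EFNA1, EFNA2, EFNA3, EFNA4, EFNA5, EFNB2 and EFNB3), which are bound to the membrane and signal on contact, was covered by a single base in any sample. EFNB1, a further ephrin on chromosome X that is not among the 55 genes, had 252 bp covered in WT A, 499 bp in 231K A, 463 bp in 232P A and 0 bp in the B samples, away from its start. EFNA4, EFNA3 and EFNA1 lie next to each other on chromosome 1, with 9.28 kb and 40.3 kb between them, and are not 3 separate places in the genome. Of the slits, the secreted cues for robo receptors, SLIT1 and SLIT3 had no peak. The strongest start-site peaks of SLIT2 were 212 to 770 bp wide and stood in WT A, 231K B and 232P A, which makes 1 sample of each genotype.

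NTN1, which encodes the secreted attractant netrin-1, carried the largest covered length of all 55 genes. It was 143 kb and 149 kb in WT A and B, 129 kb and 149 kb in 231K A and B, and 96.0 kb and 106 kb in 232P A and B. Both 232P samples lay below the other 4, whose values overlapped between WT and 231K. The mean of 232P was 0.693 of that of WT, and 0.673 within replicate A and 0.712 within replicate B, but with 2 samples against 2 an exact permutation test cannot give less than 0.333 (two-sided). Inside the gene (222 kb, chr17:9021510-9244000) the first peak began 2.11 to 2.79 kb from the canonical start, and the last ended at 184 kb. Only 0.309% of the bases covered in any sample were exonic, compared with 2.88% of the gene. The start itself was flanked on its upstream side by a peak that ended 0.777 to 0.893 kb before it.

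The other netrins carried little. NTN4, a netrin of basement membranes, had a TSS mark in WT B, both 231K samples and 232P B, with fold enrichments of 4.09, 3.61, 2.89 and 2.44. NTNG2 had 1 peak of 329 bp in 231K A, and NTN3 and NTNG1 had none.

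Semaphorins, most of which repel axons, had no TSS mark in both samples of any genotype. Of the secreted class 3 genes, SEMA3B had one in WT A, 231K B and 232P A, SEMA3F in WT A and 232P A, and SEMA3D in WT B. The strongest of these peaks in each sample was 308 to 433 bp wide, with 8 to 10 reads at the summit, and no stretch of these 3 genes was covered in all samples. SEMA3D had the highest mean covered length of the class, with 302 bp and 1747 bp in WT, 382 bp and 0 bp in 231K and 0 bp in both 232P samples. SEMA3A and SEMA3E had peaks in introns or at an exon far from a start only, and SEMA3C and SEMA3G had none.

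SEMA6B was the one membrane-bound semaphorin covered in every sample. Its covered length was 2370 bp and 3139 bp in WT, 1062 bp and 1728 bp in 231K, and 1163 bp and 1409 bp in 232P. All 4 Tau-KO values lay below both WT values, with means of 0.506 and 0.467 of WT. The exact permutation test over the 6 samples gave p = 0.0667 (two-sided), the smallest value that 4 samples against 2 allow and one that 4.71% of the 5503 covered genes reached. After Benjamini-Hochberg adjustment over these genes no value was below 1. The fold enrichment of the strongest peak was 4.05 and 4.39 in WT, 5.74 and 7.09 in 231K, and 4.47 and 4.67 in 232P, so that this value was higher in all 4 Tau-KO samples. By rank among all peaks of its list, however, the peak of 232P A (percentile 70.4) lay below those of WT (73.0 and 71.1). Both regions with peaks in all 6 samples lay upstream of the canonical start and were intronic in the annotation, and none touched the 1 kb around a start site. The stretch below (chr19:4579929-4580143, hg38, minus strand, intronic, at -20459 to -20245 bases from the canonical start) is the only one under a peak in all 6 samples.
SEMA6B: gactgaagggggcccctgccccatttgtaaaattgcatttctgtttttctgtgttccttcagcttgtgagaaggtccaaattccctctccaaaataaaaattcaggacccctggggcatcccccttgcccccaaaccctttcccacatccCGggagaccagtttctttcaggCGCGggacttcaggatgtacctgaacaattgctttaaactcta
The 215 bases hold 3 CG and are 49.3% GC. Of the other membrane semaphorins, SEMA6D and SEMA7A had 1 peak in 1 sample each, of 223 bp in 232P A and of 216 bp in 231K A. SEMA4A, SEMA4D, SEMA4F, SEMA5A, SEMA5B and SEMA6A had none.

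The EphA receptors, which bind A-type ephrins and shape topographic maps, were the most marked family. Of the 9 genes, 5 had a TSS mark in all 6 samples and EPHA10, whose kinase domain is thought to be inactive, in all but 231K A. EPHA6 was covered by 178 to 420 bp of intron in WT A and 232P A only, and EPHA2 and EPHA8 not at all. Together with NTN1, the 4 genes EPHA3, EPHA4, EPHA5 and EPHA7 held 83.8 to 93.2% of the covered length of all 55 genes in each sample.

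EPHA4, a receptor for ephrins of both types, had 52.3 to 78.5% of its length with the 1 kb margins under peaks in 5 samples and 16.6% in 232P A. The covered length was 93.7 kb and 121 kb in WT A and B, 82.8 kb and 124 kb in 231K, and 26.3 kb and 99.0 kb in 232P, of a gene of 156 kb on chr2:221418027-221574202. The 231K samples lay on either side of the WT samples, and 232P A lay far below all others. Within replicate A the ratio of 232P to WT was 0.281 and within replicate B it was 0.820.

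EPHA3, EPHA5 and EPHA7, long genes known for their role in mapping retinal and cortical axons, were covered in scattered peaks along their length. EPHA3 had 64.6 kb and 119 kb covered in WT, 59.8 kb and 105 kb in 231K, and 13.1 kb and 85.6 kb in 232P. EPHA5 had 56.8 kb and 121 kb in WT, 52.3 kb and 117 kb in 231K, and 12.1 kb and 92.1 kb in 232P. EPHA7 had 20.9 kb and 51.3 kb in WT, 23.7 kb and 49.8 kb in 231K, and 3.45 kb and 45.5 kb in 232P. In each of the 3 genes the B samples were above the A sample of the same line, 232P A was the lowest of all, and the groups overlapped. The share of covered bases found in all 6 samples was small, 0.364% in EPHA3, 0.709% in EPHA5 and 0.485% in EPHA7, whereas 43.0%, 45.2% and 49.4% were found in 1 sample only. In NTN1 these shares were 26.97% and 5.59%, and in EPHA4 6.91% and 8.49%.

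**Figure D2:**
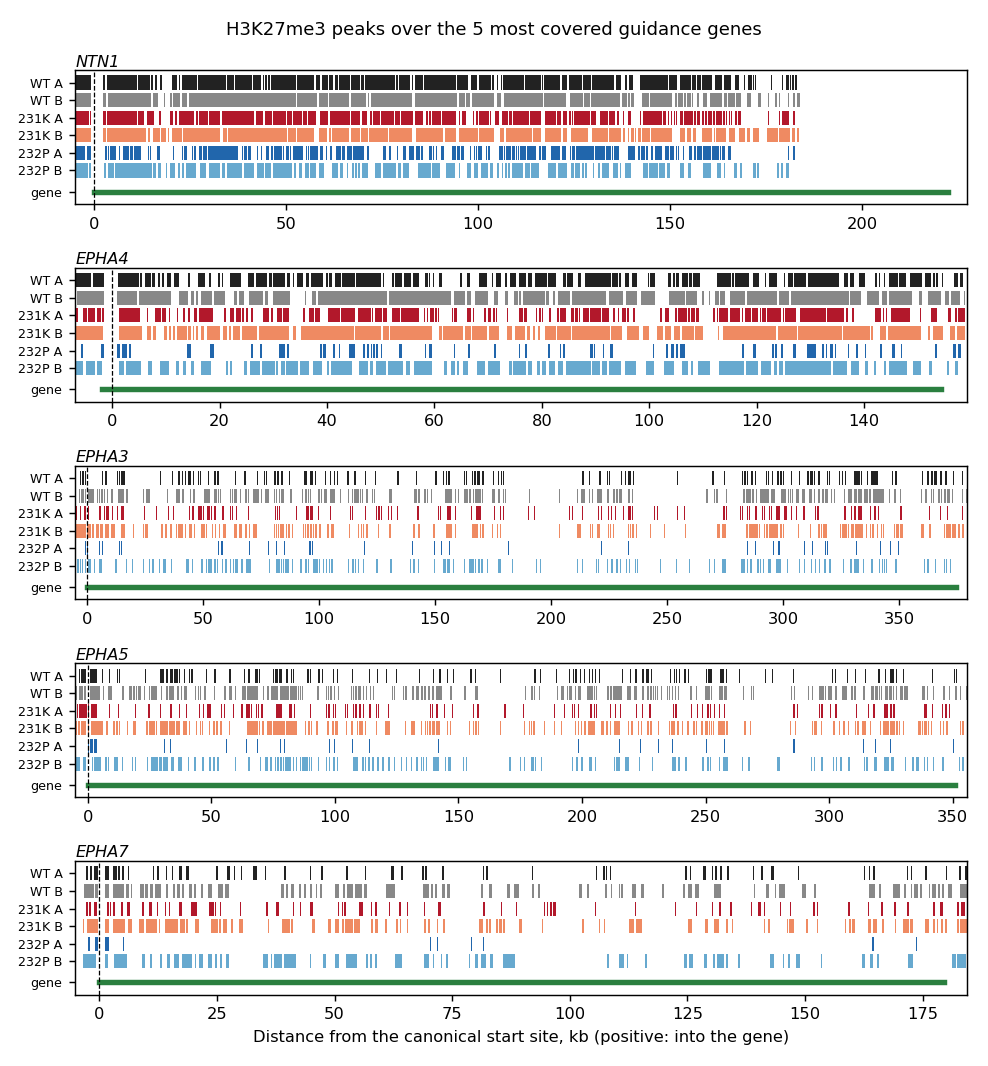
Peaks (coloured bars) of the 6 samples over the 5 guidance genes with the most covered length, by distance from the canonical start in kb on the horizontal axis, with the gene in green and the start as a dashed line. NTN1 is filled to 184 kb and empty after it, EPHA4 is filled along its length, EPHA3, EPHA5 and EPHA7 hold scattered peaks, and 232P A is the sparsest sample in each panel.

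Summed over all 55 genes, the covered length was 414 kb and 602 kb in WT A and B, 373 kb and 587 kb in 231K, and 180 kb and 462 kb in 232P. This made 508 ± 133 kb in WT, 480 ± 152 kb in 231K and 321 ± 199 kb in 232P (mean ± SD, n = 2 each), and the ranges of the genotypes overlapped. Relative to WT these means were 0.945 in 231K and 0.632 in 232P, beside 0.995 and 0.582 over all protein-coding genes. Within the letters the ratio was 0.900 (A) and 0.976 (B) in 231K and 0.435 (A) and 0.768 (B) in 232P, all below 1, beside 0.932 and 1.04 in 231K and 0.353 and 0.756 in 232P over all protein-coding genes. For the 50 genes other than EPHA3, EPHA4, EPHA5, EPHA7 and NTN1 the ratio was 0.895 in 231K (0.715 within A and 1.05 within B) and 0.821 in 232P (0.818 within A and 0.822 within B). Without 232P A the value of 232P over all 55 genes was 0.910, and without 232P B it was 0.355. The value of 231K ran from 0.734 without 231K B to 1.16 without WT B or without 231K A. As a share of all covered bases of its sample, the length of the guidance genes was 1.17 times that of WT in 232P, which turns the direction, and 0.964 times in 231K. The part of depth and peak width in these values was not tested.

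**Figure D3:**
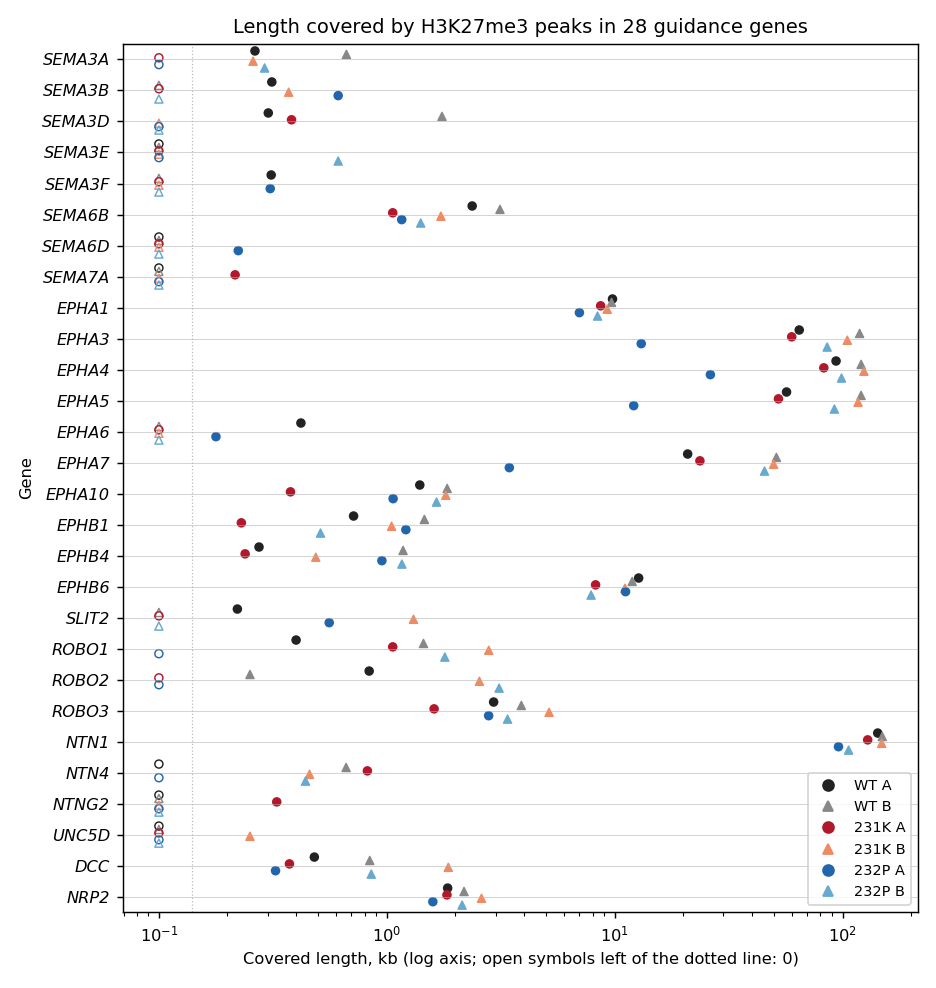
Covered length in kb (horizontal axis, logarithmic) of the 28 guidance genes with a peak in at least 1 sample, 1 symbol per sample, with open symbols at the left for a covered length of 0. EPHA1, EPHB6 and SEMA6B are the genes whose 4 Tau-KO values all lie below both WT values, and 232P A (dark blue) is lowest in EPHA3, EPHA4, EPHA5, EPHA7 and NTN1.

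EPHA1 and EPHB6 were shorter but more strongly marked, and they had the highest ranking start-site peaks of their families. EPHA1, the founding member of the Eph receptors, lies on chr7:143390289-143408856, 519 kb from EPHB6 (chr7:142855061-142871094), a receptor with an inactive kinase. The fold enrichment of the strongest peak at a start site was 7.06 and 9.25 in WT, 6.33 and 7.11 in 231K, and 7.11 and 6.42 in 232P for EPHA1, with overlapping ranges. For EPHB6 it was 8.43 and 10.4 in WT, 6.25 and 12.1 in 231K, and 6.33 and 5.53 in 232P, where 231K spanned the WT values and both 232P values lay below them. By -log10 q-value these peaks ranked at a median of the 98.6th percentile of their list in EPHA1 and the 98.9th in EPHB6, and these 2 genes alone kept a TSS mark in all samples when a -log10 q-value of at least 5 was required.

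Covered length of EPHA1 was 9785 bp and 9691 bp in WT, 8681 bp and 9276 bp in 231K, and 7004 bp and 8413 bp in 232P. For EPHB6 it was 12.7 kb and 11.9 kb in WT, 8.25 kb and 11.1 kb in 231K, and 11.2 kb and 7.88 kb in 232P. In both genes all 4 Tau-KO values lay below both WT values, with exact permutation p = 0.2 for EPHA1 and p = 0.133 for EPHB6 (two-sided, 4 against 2 samples). With SEMA6B this made 3 of 28 covered guidance genes (10.7%), near the 9.21% of all covered protein-coding genes, and no guidance gene had all 4 Tau-KO values above WT, where the background was 0.182%. These counts and the genes behind them depended on the settings. With equal numbers of strongest peaks SEMA3D took the place of SEMA6B beside EPHA1 and EPHB6, and with peaks merged within 1 kb the genes below WT were EPHB1 and SEMA6B only. The share over all covered genes is not given here for either of these settings, so these counts have no background beside them. Compared within each letter, as a replicate block, 8 of the 28 genes lay below WT (28.6%, beside 20.9% of all covered genes), namely EPHA1, EPHA3, EPHA5, EPHA10, EPHB6, NTN1, SEMA3A and SEMA6B. Without WT A there were 12 (42.9%, beside 32.5%). Away from start sites SEMA6B was the 1 gene below WT (4%, beside 8.17%), and with peaks of -log10 q of at least 5 there were 0 (beside 5.61%). As a share of all covered bases of a sample, 0 lay below WT (beside 4.98%) and 1, NRP2, lay above it (3.57%, beside 2.07%).

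The local background of peaks on chromosome 7, as a multiple of the lowest of each list, had a median of 1.399 to 1.504 in the 6 samples, compared with 1.00 to 1.01 on chromosome 3. EPHA1, EPHB4, EPHB6, SEMA3A, SEMA3C, SEMA3D and SEMA3E lie on that chromosome, and the part of this background in their values was not tested. The same median was 1.164 to 1.304 on chromosome 1, which holds EPHA2, EPHA8, EPHA10, EPHB2, SEMA4A, NTNG1, EFNA1, EFNA3 and EFNA4, and on chromosome 17, with NTN1 and EFNB3, it was 1.09 to 1.13 in the A samples and 1.00 in the B samples.

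The other EphB receptors, which bind B-type ephrins, had low peaks or none. EPHB4, the partner of ephrin-B2 in veins, had 1 intronic peak in every sample, with fold enrichments of 3.16 and 3.75 in WT, 3.61 and 2.92 in 231K, and 5.23 and 3.62 in 232P, and these ranges overlapped. EPHB1 had a TSS mark in WT A, WT B, 231K B and 232P A and intronic peaks in all samples. EPHB2 and EPHB3 had no peak in any sample.

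ROBO2, a slit receptor, was the only guidance gene whose TSS mark was present in both samples of 1 genotype and absent from both of another. This call ended with peaks of -log10 q of at least 5, where NTN1 was the 1 loss in 232P and 231K had 0, and with at least 500 bp of a window covered, where neither line had a loss. Peaks within 1 kb of the canonical start were called in WT A and B, with fold enrichments of 3.97 and 3.41 and 9 and 10 reads at the summit, and in none of the 4 Tau-KO samples. They ranked at the 67.5th and 45.4th percentile of their lists, and the start-site peak of WT B overlapped those of WT A in part only. The peak of WT B (chr3:77040864-77041114, hg38, plus strand, intronic, 765 to 1015 bases downstream of the canonical start) is printed here since the change rests on it.
ROBO2: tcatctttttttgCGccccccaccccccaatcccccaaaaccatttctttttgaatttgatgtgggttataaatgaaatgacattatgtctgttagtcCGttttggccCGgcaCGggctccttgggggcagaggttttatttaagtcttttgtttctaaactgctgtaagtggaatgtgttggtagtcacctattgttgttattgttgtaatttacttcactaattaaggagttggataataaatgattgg
It holds 4 CG in 251 bases. The covered length of ROBO2 as a whole overlapped between the groups, with 837 bp and 251 bp in WT, 0 bp and 2550 bp in 231K, and 0 bp and 3112 bp in 232P. The peaks of 231K B and 232P B lay at -904 to -882 kb from the canonical start, in an intron of longer transcripts, and 1 of these places also held a peak in WT A. Both A samples of the Tau-KO lines had no peak in the gene, and both B samples had more than WT.

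One lost mark of the 14 guidance genes marked in both WT samples makes 7.14%, for each line. Over all genes marked in both WT samples, 2.52% lost the mark in 231K and 7% in 232P. The guidance genes with a TSS mark in both samples were 14 in WT (25.5%, beside 16.5% of all genes), 12 in 231K (21.8%, beside 15.7%) and 12 in 232P (21.8%, beside 12.2%). The order of these counts depended on the settings. With at least 500 bp of a window covered they were 7 in WT, 8 in 231K and 8 in 232P. With equal numbers of strongest peaks they were 10, 9 and 11. For none of the alternative settings or left-out samples is the share of all genes marked in a genotype, or losing the mark, given here. These counts therefore have no background beside them, and whether their order is particular to the guidance genes was not tested. Leaving out 1 sample changed the losses. Without 232P A, EPHB1 was a further loss in 232P. Without 231K B, EPHA10 and EPHB1 were further losses in 231K. Without WT A, SEMA3D was a further loss in both lines, and without WT B, SEMA3F in 231K. None of the 36 genes without a mark in either WT sample gained one in both samples of 231K or of 232P, where the background was 0.206% and 0.0812%. With the canonical start only, EPHA4 was a second gene to lose its mark in 231K. Its nearest downstream peak began 0.990 kb and 0.912 kb from that start in WT, 1.247 kb and 1.220 kb from it in 231K, and 0.951 kb and 1.297 kb in 232P, on either side of the 1 kb limit.

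Among the other robo receptors, ROBO3, which lets commissural axons cross the midline, had a TSS mark in all 6 samples. Its fold enrichments were 3.97 and 5.78 in WT, 4.51 and 5.84 in 231K, and 5.43 and 3.52 in 232P, which overlap. ROBO1 had intronic peaks 162 to 171 kb downstream of its start in all samples but 232P A and no TSS mark, and the endothelial ROBO4, 2.22 kb from ROBO3, had no peak.

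DCC, the netrin receptor that mediates attraction, had narrow and low peaks at its start in all 6 samples. The fold enrichments were 3.11 and 2.84 in WT, 3.28 and 3.92 in 231K, and 5.47 and 3.91 in 232P. All 4 Tau-KO values lay above both WT values, but the summits held 7 to 10 reads only, and the order was not kept in the percentile of the peaks, where 231K A lay below WT A. The UNC5 receptors, which turn the response to netrin into repulsion, had no TSS mark, and only UNC5D had a peak, of 251 bp in 231K B. UNC5A, UNC5B and UNC5C had none.

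NRP2, a co-receptor of class 3 semaphorins, had its peak downstream of the start. The nearest peak began 0.401 to 0.577 kb into the gene in all samples, over exonic and intronic bases, and only 231K B had a peak within 5 kb upstream. Fold enrichments were 7.15 and 5.51 in WT, 5.33 and 8.45 in 231K, and 4.47 and 6.09 in 232P, and covered length was 1.59 to 2.60 kb with all groups overlapping.

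Across the 11 genes with a TSS mark in all samples, the fold enrichment of the strongest start-site peak showed no common direction in 231K. The mean of 231K was below that of WT in 5 genes and above it in 6, with a median ratio of 1.01, and 0.897 within replicate A and 1.05 within replicate B. The mean of 232P was below that of WT in 9 genes and above it in 2, with a median ratio of 0.850, and 0.861 and 0.887 within A and B. Over all protein-coding genes with a TSS mark in a sample, the median fold enrichment was 4.76 and 5.46 in WT A and B. It was 4.92 and 5.76 in 231K, and 4.84 and 4.86 in 232P. These counts and ratios have no counterpart here over all genes marked in every sample. Whether they are particular to the guidance genes was not tested. The fold enrichment depends on the depth of a sample, and no test was made over these genes.

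A feature shared by the marked genes was a gap at the start. The first base of the canonical transcript was under no peak in any of the 55 genes in any of the 6 samples. Of the 11 genes with a TSS mark throughout, 8 had peaks within 5 kb on both sides of the start in all samples. Over all 11 genes, 56 of 66 pairs of gene and sample had such flanking peaks. The gap between them was 0.527 to 5.72 kb, with a median of 1.69 kb. Its largest value was that of EPHB4 in WT B, and among the 8 genes the largest was 3.56 kb (NTN1 in 232P A). The gap was narrowest in EPHA3, at 0.527 to 1.19 kb, and between 2.46 and 3.56 kb in EPHA4 and NTN1. In EPHA7 the gap was 1.49 kb and 1.48 kb in WT, 2.12 kb and 1.48 kb in 231K, and 1.46 kb and 1.98 kb in 232P, and in ROBO3 1.66 kb and 1.31 kb, 2.22 kb and 1.36 kb, and 1.20 kb and 1.49 kb. The genotypes overlapped in both genes.

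**Figure D4:**
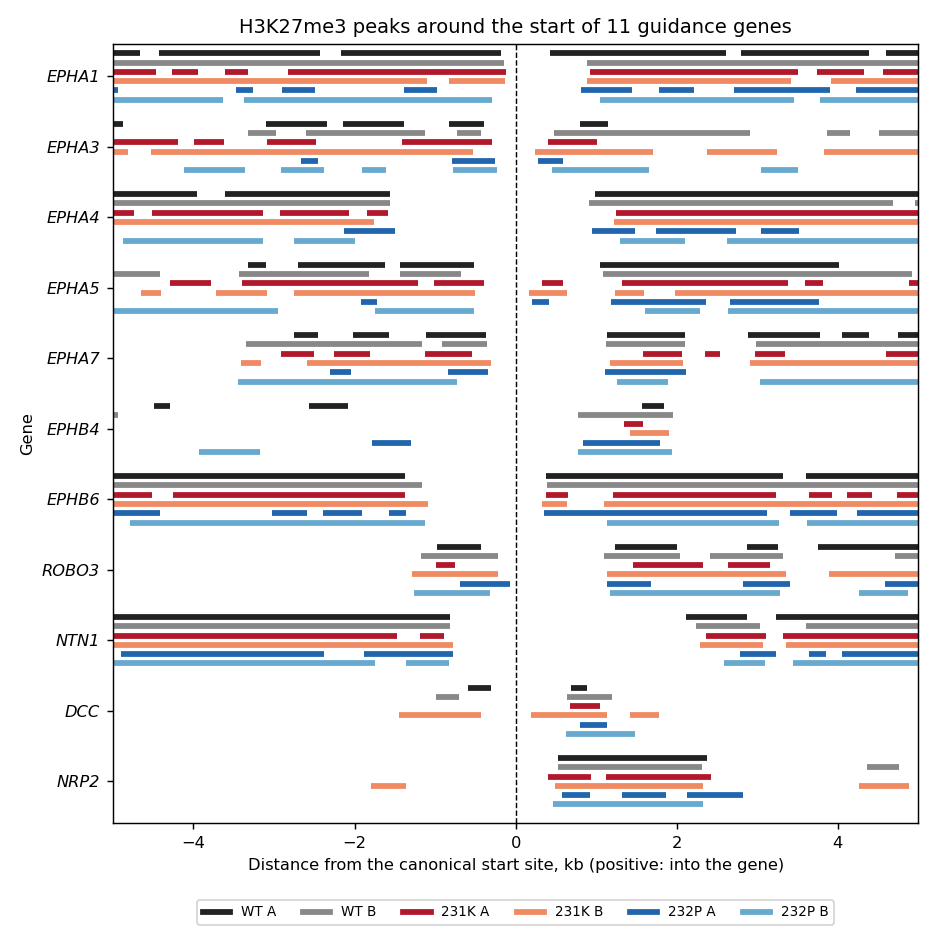
Peaks (bars, 1 line per sample and colour as in the key) within 5 kb of the canonical start (dashed line) of the 11 guidance genes with a TSS mark in all 6 samples, by distance in kb on the horizontal axis. No bar crosses the start in any gene, peaks stand on both sides of it in EPHA1, EPHA3, EPHA4, EPHA5, EPHA7, EPHB6, ROBO3 and NTN1, and only the downstream side is marked in most samples of NRP2.

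Other genes give the setting for this gap. Of the 1708 protein-coding genes with a mark within 1 kb of the canonical start in all 6 samples, 62.1% had the start base under a peak in at least 1 sample, and 0 of the 8 guidance genes among them had. The share was 18.7% for genes with a ratio of observed to expected CpG of at least 0.6 in the 2 kb around the start, a usual limit for CpG islands, and 83.3% for genes below it. Of the 8 guidance genes, NRP2, EPHA5, EPHA7, ROBO3 and NTN1 were above the limit, and EPHA3, EPHA1 and DCC below it. In 200 bp bins, the first bin after the start was covered to 24.2 to 38.4% over the 2281 genes with a TSS mark in all samples, and to 0 to 1.55% over the 11 guidance genes. The mean GC content of that bin was 59.2% and 67.6%. Whether GC content sets the gap, in the cells or in the libraries, was not tested.

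**Figure D5:**
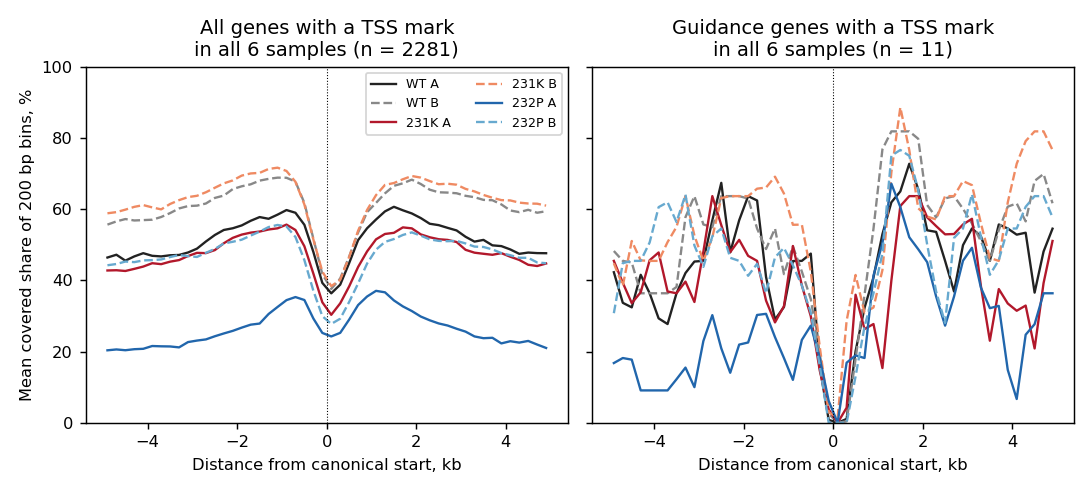
Mean share of 200 bp bins covered by peaks (vertical axis, percent) by distance from the canonical start in kb (horizontal axis) for all 2281 genes (left) and the 11 guidance genes (right) with a TSS mark in all 6 samples, 1 line per sample. All lines dip at the start, to between 24.2 and 38.4% in the first bin over all genes and to between 0 and 1.55% over the guidance genes.

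The CpG content of the 2 kb around the start was compared between marked and unmarked guidance genes. The median ratio of observed to expected CpG was 0.746 in the 11 genes with a TSS mark in all samples, 0.679 in the 8 with a mark in some and 0.711 in the 36 with none. Over all protein-coding genes these medians were 0.420, 0.519 and 0.657, lowest in the marked genes. No test was made of these medians.

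Other genes of the pathway were listed by their function. Of 21 other guidance ligands and receptors and 15 intracellular effectors, 1 had a TSS mark in all 6 samples, which was PLXNC1, a receptor for SEMA7A (11.4% over all genes). Marks in some samples were found for NRP1, PLXNA3, PLXNA4, DSCAM and CRMP1, and 30 of the 36 had none, which leaves 6 with a mark in at least 1 sample (21.9% over all genes). No test was made of these counts. NRP1, the co-receptor of SEMA3A, had fold enrichments of 2.78 and 3.94 in WT and 4.47 and 4.26 in 232P, and no peak in 231K, but the peak of WT A reached into the start window by 1 base only. Of the 3 genes of these lists marked in both WT samples it was the one that lost the mark in 231K (2.52% over all genes), and none did in 232P (7% over all genes). DSCAM, a further netrin receptor, had a covered length of 3926 bp and 4007 bp in WT, 1101 bp and 2408 bp in 231K, and 0 bp and 2049 bp in 232P. All of its Tau-KO values lay below WT, with exact permutation p = 0.0667 (two-sided), which made it 1 of the 12 covered genes of these lists (9.21% over all covered genes).

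Marker genes were read for the presence of a mark, since the lists do not measure expression. The adrenergic neuroblastoma markers HAND2, GATA3, ISL1, TH and DBH had no TSS mark in any sample. Of 6 mesenchymal markers, PRRX1 and YAP1 were marked in all 6 samples, with 29.5 to 67.5 kb and 4.78 to 75.1 kb covered, and FN1 in 232P B only. Of 6 housekeeping genes, 5 had no peak, and HPRT1 on chromosome X was marked in all 6 samples.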

How the data were processed

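H3K27me3 ChIP-seq peaks of 6 samples, 2 per genotype, were used. Before deposit the authors used trimmomatic for trimming, BWA for alignment (genome build hg38) and MACS version 2 for peaks, sample by sample. Their methods name a broad setting, whereas the deposited lists have 10 narrowPeak columns. The q-value threshold, duplicate handling and control library are not given in the sources used here. The deposited fold enrichment (column 7, a ratio to the local background) and the deposited -log10 p-value and -log10 q-value (columns 8 and 9) are not normalized between samples. Whole reads at the summit, within 0.001 for 100% of peaks, were solved from fold and p-value. The 232P lists name their peaks 231P, but genotypes were taken from the labels. The 6 input samples were not analysed here.

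Start sites and genes came from GENCODE release 44 (hg38). A peak counted from 1 bp of overlap. Covered lengths were compared by exact permutation over samples, two-sided, with a smallest p of 0.0667 for 4 against 2 and 0.333 for 2 against 2. The study calls the samples of a line biological duplicates without saying how they were separated, so p-values may measure technical spread only. The letters come from the labels. Deviations of same-letter samples from their group means in covered length (log2 with 100 bp added) correlated at 0.197, 0.290 and 0.185 over 5503 genes. Over the 28 covered guidance genes these correlations were -0.31, 0.50 and 0.147, for WT with 231K, WT with 232P and 231K with 232P. Values within a letter treat it as a pairing of samples across lines, which the labels do not state. The permutation tests did not use the letter. Members and lists were chosen with earlier results of these data known. Named genes were those with a mark gained or lost, the most covered and the highest ranking gene of each family, and those whose covered lengths did not overlap. Other genes with values were chosen after their values were seen. Alternatives were the peak threshold, window, start, overlap, merging, scaling, block and left-out samples. Python 3.11.15, numpy 2.4.6, pandas 2.3.3, scipy 1.17.1 and matplotlib 3.10.9 were used, and counting was tested on simulated peaks. Part of the marker results is not reported here.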

Additional observations from a re-analysis of the deposited data

How the results depend on the processing

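Of 70 alternatives other than leaving out a sample, 53 kept the value, 16 moved it and 1 turned its direction, the ratio of 232P to WT as a share of all covered bases (1.17 in place of 0.632). With peaks of -log10 q of at least 5, the genes with a TSS mark in both samples numbered 7 in WT, 6 in 231K and 2 in 232P, 0 lost it in 231K, NTN1 took the place of ROBO2 as the 1 loss in 232P, and 0 had all Tau-KO covered lengths below WT. With at least 500 bp of a window covered, 7 were marked in WT, 8 in 231K and 8 in 232P, and 0 were lost in either line. With equal numbers of strongest peaks, 10 were marked in WT, 9 in 231K and 11 in 232P. WT thus had the highest count and 232P the lowest with peaks of -log10 q of at least 5. With at least 500 bp of a window covered WT had the lowest count, and with equal numbers of strongest peaks 232P had the highest. A 2.5 kb window gave 2 losses in each line (ROBO2 and SEMA3D), the canonical start 2 in 231K, and equal numbers of strongest peaks 1 gain in 232P (DCC). Away from start sites 1 gene (SEMA6B) lay below WT, as a share of all covered bases 0 lay below and 1 above (NRP2). With the letter as a replicate block 8 genes lay below WT. The block was run for covered length only, where it left the count above WT at 0 and the ratios at 0.938 and 0.601. Leaving out 1 sample gave 14 to 17 marked genes in WT, 12 to 16 in 231K and 12 to 16 in 232P, 1 to 3 losses and 0 to 1 gains in 231K (NTN4 without WT B), 1 to 2 losses in 232P, 3 to 12 genes below WT (12 without WT A), and ratios to WT of 0.734 to 1.16 in 231K (above 1 without WT B and without 231K A) and 0.355 to 0.910 in 232P, 0.910 without 232P A. For the marked, lost and gained genes of each genotype at these alternatives, no share over all genes is given here, so these counts have no background beside them. The causes were not tested.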
